A study of Mus musculus with 6 samples.

Results

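The replication-dependent histone genes are the clustered, multi-copy genes for the linker histone H1 and the core histones H2A, H2B, H3 and H4. They were taken from a gene table by current mouse symbol, with older symbols of the Hist1h to Hist4h form used where the current name has a different shape. The rule gave 69 genes of the 27179 in the table, with 6 genes for H1, 19 for H2A, 19 for H2B, 12 for H3 and 13 for H4. By cluster, 55 lie in Hist1 on chromosome 13, 10 in Hist2 on chromosome 3, 3 in Hist3 on chromosome 11 and 1 in Hist4 on chromosome 6. Of the 69, 57 matched the symbol pattern letter for letter. The other 12, among them the 6 H1 genes and H2aw, came in by the older symbol. H4bc24 was counted as H2B because its older symbol is that of an H2B gene, and 3 symbols that match the pattern but name no clustered histone gene (H13, H19 and H1f10) were left out.

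All libraries came from bone marrow stromal cells of C57BL/6 mice at P2 that carry the Cxcl12-dsred/+ genotype, a red reporter on 1 allele of the chemokine gene Cxcl12. The cells were sorted as DsRed-positive and negative for CD45, Ter119 and CD31, which mark blood cells, erythroid cells and endothelium. There were 2 libraries bound by beads with an antibody to N6-methyladenosine (anti-m6A), 2 bound by beads with IgG (IgG) and 2 of RNA set aside before the pull-down (Input). RNA was selected on oligo(dT) beads before the pull-down and copied by Smart-seq2, which primes on poly(A) and marks neither strand nor single molecules. The labels do not say whether libraries 1 and 2 of a group came from separate animals or sorts, so the p-values take in only how far these 2 libraries of a group differ, and that may be a technical difference.

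Replication-dependent histone mRNAs are made in S phase, when new DNA must be packed into nucleosomes. H2A, H2B, H3 and H4 form the nucleosome core, and H1 binds the linker DNA between cores. Unlike other mRNAs these end in a short stem-loop, bound by the stem-loop binding protein SLBP, in place of a poly(A) tail. Some of the genes, H2bc4 and H1f2 among them, are known to make polyadenylated mRNA as well, mainly in cells that have stopped dividing.

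The stem-loop is shown for 6 genes on which the results turn, because it is the feature that a poly(A) library would mostly miss. In the GENCODE vM21 transcripts (GRCm38), 45 of the 69 genes carried it in their longest transcript and 46 in any transcript, against 12 of 21834 other protein-coding genes (0.055%). Capitals mark the stem, loop and stem, on the strand of the mRNA, and the bases on each side are in lower case.
H1f2: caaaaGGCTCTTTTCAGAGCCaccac
H2aw: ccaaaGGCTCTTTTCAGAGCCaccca
H2ac8: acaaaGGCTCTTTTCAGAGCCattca
H3c8: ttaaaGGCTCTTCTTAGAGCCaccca
H4c9: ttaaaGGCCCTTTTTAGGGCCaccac
H4c14: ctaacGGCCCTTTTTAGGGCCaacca
There were 8 different stem-loops in all. The one printed for H1f2, H2aw and H2ac8 was in 25 genes of the H1, H2A, H2B and H3 classes, and that of H3c8 was in H3c8 alone. The one printed for H4c9 and H4c14 was in those 2 genes, and the most frequent stem-loop of the H4 class was in 7 genes. The annotated transcript ended within 100 bases of the stem-loop in 22 genes, ran on for 100 bases or more in 23, and held no stem-loop in 24, H2bc4 and H2bc21 among the last. Others of the 24 are short, such as H2ac13, H2ac15 and H2ac22 at 393 bases and H2bc13, H2bc15 and H2bc18 at 381. In RefSeq the spans were longer, at 448, 536 and 475 bases for H2ac13, H2ac15 and H2ac22. For H2bc13, H2bc15 and H2bc18 they were 473, 478 and 493 bases. Whether the GENCODE annotation stops before the stem-loop in these genes was not tested.

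The libraries held 5133237 to 6102070 counts in anti-m6A, 1278735 to 2487148 in IgG and 7125578 to 9493391 in Input. Genes with a count numbered 12391 to 12714 in anti-m6A, 2723 to 3266 in IgG and 10024 to 11186 in Input. Of 6 marrow stroma markers, all 6 were detected in each anti-m6A and Input library and 3 in each IgG library. The 6 hepatocyte markers made up 0.0225% and 0.0244% of the counts in anti-m6A, 1.59% and 1.73% in IgG and 0.0102% and 0.0868% in Input, and all 6 were detected in both IgG libraries. The 5 myeloid markers made up 0.00302% and 0.00355% in anti-m6A, 0.268% and 0.208% in IgG and 0.00372% and 0.0158% in Input. Of these, Elane was at 0 in all 6 libraries, and Lyz2 had 181 counts in the second Input library and 0 in the others. The 5 erythroid markers made up 0.0822% and 0.0935% in anti-m6A, 0.377% and 0.426% in IgG and 0.0539% and 0.0707% in Input. The 4 endothelial markers summed to 28 and 28 counts in anti-m6A, 0 in both IgG libraries and 180 and 636 in Input. The B lineage genes Cd79a, Cd79b and Igll1 were at 0 in all 6 libraries. The fourth B lineage marker, Vpreb1, was at 136 and 146 counts with anti-m6A and at 0 in the 4 other libraries. It passed the filter on low counts only through the anti-m6A libraries, which set the direction of its calls. Its adjusted p of 0.00325 against IgG and 0.00716 against Input (edgeR) are thus given as a description. The marker values move with the results below, and their part in those results was not tested.

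Of the 69 histone genes, 52 had a count in some library and 17 were at 0 in all 6. Detected genes numbered 41 and 38 in anti-m6A, 28 and 24 in IgG and 28 and 34 in Input. Their summed counts were 5708 and 5064 in anti-m6A, 875 and 474 in IgG and 2898 and 9207 in Input. As a share of the library this was 0.0935% (exact 95% interval 0.0911% to 0.096%) and 0.0987% (0.096% to 0.101%) in anti-m6A. It was 0.0352% (0.0329% to 0.0376%) and 0.0371% (0.0338% to 0.0406%) in IgG. It was 0.0407% (0.0392% to 0.0422%) and 0.097% (0.095% to 0.099%) in Input. Both anti-m6A libraries stood above both IgG libraries, while the second Input library lay between the anti-m6A libraries and the first was near the IgG libraries. Intervals and floors here allow for counting error and nothing else, because reads copied by amplification and not tagged by molecule are not independent. In these bulk libraries fewer cells that make histone mRNA and less of it per cell cannot be told apart. A share under 3 counts could not be seen, which is 4.92e-05% and 5.84e-05% of the anti-m6A libraries, 0.000121% and 0.000235% of the IgG libraries and 4.21e-05% and 3.16e-05% of the Input libraries.

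**Figure D1:**
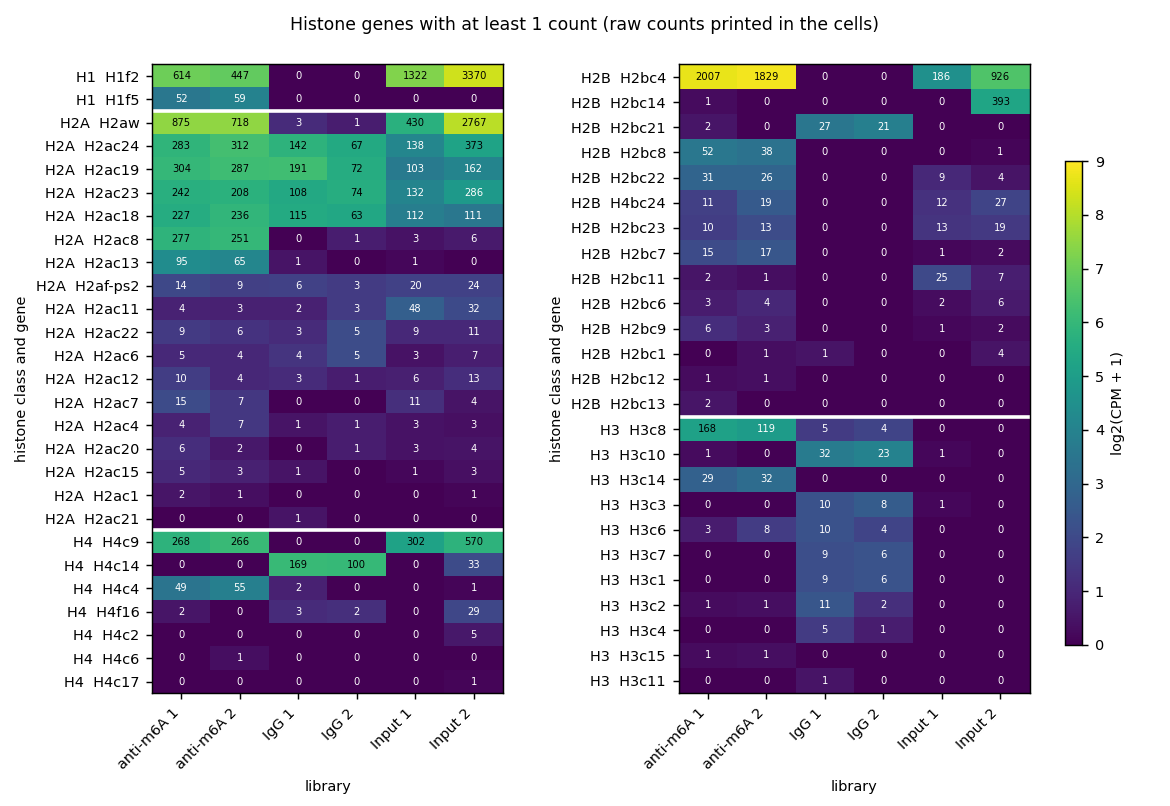
Each row is 1 of the 52 histone genes with a count, each column 1 library, with the raw count printed and colour showing log2(CPM + 1), where CPM is the count scaled to a common library size. H2bc4 is the brightest gene in anti-m6A with 2007 and 1829 counts, H4c14 has 169 and 100 counts in IgG and 0 in anti-m6A, and H1f2 is the brightest in Input with 1322 and 3370.

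The classes made up different parts of these sums. H2B genes took 37.5% and 38.5% of the histone counts in anti-m6A, 3.2% and 4.43% in IgG and 8.59% and 15.1% in Input. H1 genes took 11.7% and 9.99% in anti-m6A, 0 in both IgG libraries and 45.6% and 36.6% in Input. H2A genes took 41.6% and 41.9% in anti-m6A, 66.4% and 62.7% in IgG and 35.3% and 41.3% in Input. H3 genes took 3.56% and 3.18% in anti-m6A and 10.5% and 11.4% in IgG, and had 2 counts and 0 counts in the Input libraries. H4 genes took 5.59% and 6.36% in anti-m6A, 19.9% and 21.5% in IgG and 10.4% and 6.94% in Input.

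As a mean share of the library, H2B reached 0.0366% in anti-m6A (SD 0.00206, n = 2), against 0.00138% in IgG (SD 0.000365, n = 2) and 0.00907% in Input (SD 0.00789, n = 2), ratios of 26.4 and 4.03. Both rest on H2bc4: on the log2 scale the H2B ratio to IgG was 4.72 with it and 0.74 without it, and that to Input was 2.01 with it and turned to -0.32 without it. The ratio to Input was also 1.32 on that scale without the first Input library and 3.39 without the second. For H3 the mean share was 0.00323% in anti-m6A and 0.00396% in IgG, a log2 ratio of -0.29 that became 0.23 when libraries were scaled by TMM and was -2.41 without the H3 gene with most counts, H3c8. For H4 the mean share was 0.00575% in anti-m6A and 0.00749% in IgG, a log2 ratio of -0.38 that became 0.14 with TMM and was -2.96 without the H4 gene with most counts, H4c9. H2A averaged 0.0402% in anti-m6A, 0.0233% in IgG and 0.0272% in Input, and its log2 ratio of 0.79 to IgG was 0.16 without H2aw. By cluster, the Hist2 genes averaged 0.0101% in anti-m6A (SD 0.00109, n = 2), 0.0202% in IgG (SD 8.91e-05, n = 2) and 0.00316% in Input (SD 0.000146, n = 2). The Hist1 genes averaged 0.0718% in anti-m6A (SD 0.00279, n = 2), 0.0157% in IgG (SD 0.00143, n = 2) and 0.0479% in Input (SD 0.0231, n = 2). Hist2 was thus lower with anti-m6A than with IgG and Hist1 higher, on the share of the library and with TMM. For Hist2 the direction with TMM depends on H4c14. That gene had 65.1 of the mean 180.5 CPM of Hist2 in IgG, and 0 of the mean 129.3 CPM in anti-m6A. For comparison, 11 genes were listed as replication-independent histones with polyadenylated mRNA. They summed to 0.549% and 0.596% in anti-m6A, 0.283% and 0.264% in IgG and 0.392% and 0.428% in Input.

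**Figure D2:**
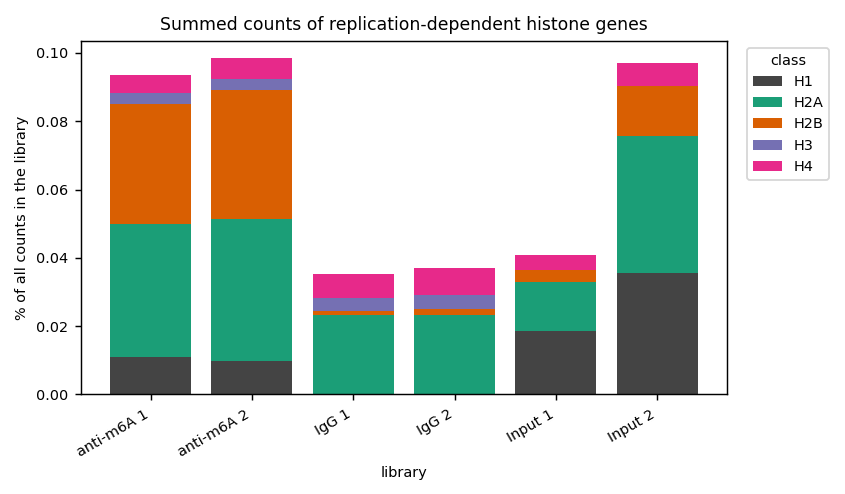
Stacked bars give the summed counts of each histone class as a percent of all counts in each of the 6 libraries. The H2B part is tallest in the anti-m6A libraries, H1 is missing from the IgG libraries, and H3 is not visible in the Input libraries, which held 2 counts and 0 counts of it.

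The first comparison, anti-m6A against IgG, asks which RNAs were held by the m6A antibody beyond what beads with IgG held. H2bc4, H1f2, H4c9 and H2aw were far higher with the m6A antibody, while H4c14 and 4 copies of H3 were lower. Of the 28 histone genes that passed the filter on low counts, 15 had a higher level with anti-m6A than with IgG at an adjusted p under 0.05, where 73.1% of all 11281 tested genes were. Lower were 6, where 8.31% of all tested genes were. The median fitted log2 difference was 4.25 over these 28 genes, or 0.99 with genes at 0 in a group set to their lower bound, against a fitted median of 8.48 over all tested genes. The counts fell to 7 higher and 3 lower without the first anti-m6A library and to 7 and 1 without the second, and only 1 was lower without either of the IgG libraries. Over all tested genes, 6572 of 11720 were higher without the first anti-m6A library and 6850 of 11981 without the second. Fewer of all tested genes were also called lower in each fit without an anti-m6A or an IgG library. All 10 tested histone genes with at least 50% of their sequence windows unique (defined below) were called, 8 higher and 2 lower. Of these, H1f5, H2ac8, H2bc22 and H4c4 passed the filter on low counts only through the anti-m6A libraries. The 2 lower genes, H2bc21 and H4c14, needed the IgG libraries to pass. That all 10 were called was thus in part set by the filter. Of the 15 higher genes, 10 were at 0 in both IgG libraries, and of the 6 lower, 4 were at 0 in both anti-m6A libraries. H1f5, H2ac8, H2ac13, H2bc7, H2bc8, H2bc22, H3c14 and H4c4 passed the filter on low counts only through the anti-m6A libraries. H2bc21, H3c1, H3c3, H3c6, H3c7 and H3c10 passed it only through the IgG libraries. H4bc24 needed an anti-m6A library to pass, H4c14 an IgG library and H2ac11 an Input library. The filter thus set or favoured the direction in which these genes differ from other groups. Their p-values, here and below, are given as a description.

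In the second comparison, anti-m6A against Input, the question is which RNAs took a larger part of the antibody-bound RNA than of the RNA before the pull-down. H3c8, H1f5, H2ac8 and H2bc8 were abundant or clearly present with the antibody and nearly missing from Input, and H2ac11 was lower. Higher were 14 of the 28 tested histone genes, where 28% of all tested genes were. Lower was 1, H2ac11, where 20.5% of all tested genes were. The median log2 difference was 1.77 over the 28, or 1.71 with bounds, and 0.18 over all tested genes. With DESeq2's size factors the median of all genes moved to -0.22 and that of the histone genes to 1.33, with 13 histone genes higher and 2 lower, and with 2711 of all genes higher and 2982 lower in place of 3156 and 2308. Without the first anti-m6A library 1 of 33 tested histone genes was called higher, H3c8, where 370 of 11720 of all genes were, and without the second 1 of 35, again H3c8, where 408 of 11981 were. No histone gene was called lower in those fits, where 72 and 93 of all genes were. Without the first or the second Input library more genes were called lower, among the histone genes and among all tested genes. Both comparisons use the same anti-m6A libraries. The p-values of genes that passed the filter only through them are a description here too.

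The third comparison, IgG against Input, shows what the beads held without the m6A antibody. H2bc21 and 6 copies of H3 were higher in IgG, and H1f2, H2bc4, H4c9 and H2aw were lower. Of the higher genes, H2bc21, H3c1, H3c3, H3c6, H3c7 and H3c10 passed the filter on low counts only through the IgG libraries. Their calls against Input are given as a description. Of the 28 tested, 9 were higher in IgG, where 9.89% of all tested genes were, and 8 were lower, where 61.5% were. The median log2 difference was 0.45 over these 28 and -8.23 over all tested genes. It turned to -0.49 without the first IgG library and -0.17 without the second, and was 0 without either anti-m6A library. With 1 library left out the numbers of calls also moved, among the histone genes and among all tested genes. Among the 10 tested genes with at least 50% unique windows 1 was higher and 5 were lower.

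**Figure D3:**
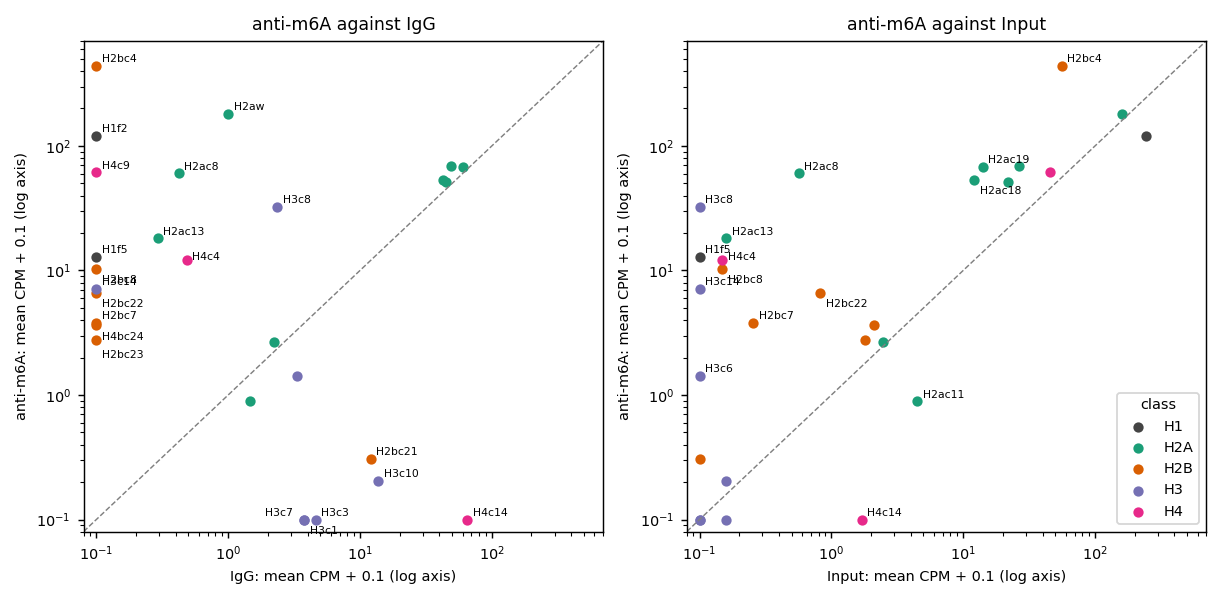
Points are the 28 tested histone genes by mean CPM of 2 libraries, coloured by class, with 0.1 added on log axes, and anti-m6A on the vertical axis against IgG (left) and Input (right); the dashed line marks equal levels. H2bc4 is highest in anti-m6A in both panels at a mean of 439 CPM, and H4c14 is at the bottom of the left panel with 0 CPM in anti-m6A and 65.1 CPM in IgG.

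Among the H1 genes, H1f2 (chr13:23738807-23739531), a linker histone made in most tissues, had 614 and 447 counts with anti-m6A, 0 and 0 in IgG and 1322 and 3370 in Input. It was present in every anti-m6A and Input library and in neither IgG library. At 120.0 ± 10.4 CPM in anti-m6A (SD, n = 2) it was at least 77.3-fold higher than the floor of 3 counts in IgG (adjusted p = 0.00103). Against Input at 242 ± 121 CPM (SD, n = 2) the log2 difference was -1.01 (SE 0.44, adjusted p = 0.131), so this difference was not called.

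H1f5 (chr13:21779832-21780625), an H1 gene known from dividing cells, was seen with the antibody alone, at 52 and 59 counts, and was at 0 in the 4 other libraries. It was at least 8.27-fold higher than IgG (adjusted p = 0.00415) and at least 39.7-fold higher than Input (adjusted p = 0.00716). The call against IgG was lost without the second anti-m6A library (adjusted p = 0.0538), and that against Input without either one. H1f1, H1f3, H1f4 and the testis gene H1f6 were at 0 in all 6 libraries.

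Among the H2A genes, H2aw (chr11:58954685-58955192), the H2A gene of the Hist3 cluster, had 875 and 718 counts with anti-m6A, 3 and 1 in IgG and 430 and 2767 in Input. The Input libraries lay below and above the anti-m6A libraries in CPM. Against IgG it was higher, with a log2 difference of 7.54 (SE 1.11, adjusted p = 0.00237), and not called against Input (0.18, SE 0.75, adjusted p = 0.863).

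H2ac8 (chr13:23570663-23571220) had 277 and 251 counts with anti-m6A, 0 and 1 in IgG and 3 and 6 in Input. Only the antibody libraries held more than a few counts. It averaged 60.4 ± 4.12 CPM in anti-m6A and 0.469 ± 0.161 CPM in Input (SD, n = 2 each), a log2 difference of 6.93 (SE 0.86, adjusted p = 0.00716) that was lost without either anti-m6A library (adjusted p up to 0.0557). Over the single count in IgG the ratio was 248 (exact counting interval 44.3 to 9817), with adjusted p = 0.00166.

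H2ac13 (chr13:21716412-21716859) had a similar pattern at a lower level, with 95 and 65 counts in anti-m6A, 1 and 0 in IgG and 1 and 0 in Input. With 7.99% of its windows its own, its counts may be divided among copies. Its ratio to IgG was 75.2 (counting interval 13.3 to 2988) and it was called in every leave-one-out fit against IgG, with an adjusted p of up to 0.0479. Over the 1 count in Input the ratio was 342 (counting interval 60.4 to 13570).

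A group of 4 H2A genes differed from these in having levels with IgG near those with the antibody. H2ac19 (chr3:96239779-96240374) had 304 and 287 counts with anti-m6A, 191 and 72 in IgG and 103 and 162 in Input. H2ac18 (chr3:96245497-96246052) had 227 and 236 in anti-m6A, 115 and 63 in IgG and 112 and 111 in Input. H2ac24 (chr13:21833024-21833475) had 283 and 312 in anti-m6A, 142 and 67 in IgG and 138 and 373 in Input, and H2ac23 (chr13:21810367-21810918) had 242 and 208 in anti-m6A, 108 and 74 in IgG and 132 and 286 in Input. All 3 groups held all 4 genes, with Input lowest on average. In CPM their means in anti-m6A were 51.3 to 68.7, those in IgG 42.7 to 60.3 and those in Input at most 26.3. Against IgG no difference was called, with log2 differences of 0.17 to 0.48 and adjusted p of 0.365 to 0.678. H2ac19 was higher in anti-m6A than in Input (log2 difference 2.28, SE 0.36, adjusted p = 0.00741), as was H2ac18 (2.15, SE 0.32, adjusted p = 0.00716), and both calls were lost without either anti-m6A library (adjusted p up to 0.185). H2ac19 (2.11, SE 0.36, adjusted p = 0.00369) and H2ac18 (1.83, SE 0.32, adjusted p = 0.0039) were also higher in IgG than in Input. H2ac23 was called higher than Input (1.24, SE 0.37, adjusted p = 0.0432), a call that held only with one of the Input libraries left out. H2ac19 has no 31-base window of its own and H2ac24, H2ac23 and H2ac18 only 6.64%, 6.22% and 10.3%, so their counts may be divided among copies.

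H2ac11 (chr13:22042478-22042949) went the other way, with 4 and 3 counts in anti-m6A, 2 and 3 in IgG and 48 and 32 in Input. It was lower in anti-m6A than in Input (log2 difference -2.43, SE 0.58, adjusted p = 0.0216), a call lost with either anti-m6A library left out. The pseudogene H2af-ps2 had 14 and 9 counts with anti-m6A, 6 and 3 in IgG and 20 and 24 in Input, with no call. The untested H2A genes H2ac4, H2ac6, H2ac7, H2ac12, H2ac15, H2ac20 and H2ac22 had 0 to 15 counts in a library, the testis gene H2ac1 had 0 to 2 and H2ac21 had 1 count in IgG 1 alone. H2ac10 was at 0 throughout.

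H2bc4 (chr13:23684199-23692480) had the most counts of any histone gene with the antibody, 2007 and 1829 in anti-m6A, 0 and 0 in IgG and 186 and 926 in Input. The anti-m6A libraries were close to each other, and both Input libraries lay below them but far apart. It made up 35.2% and 36.1% of all histone counts in anti-m6A and 6.42% and 10.1% in Input. At 439 ± 31.7 CPM in anti-m6A it was at least 283-fold higher than the floor in IgG (adjusted p = 0.0021). Against 55.9 ± 48.0 CPM in Input (SD, n = 2 each) the log2 difference was 2.97 (SE 0.76, adjusted p = 0.0369), a call lost with either of the anti-m6A libraries left out (adjusted p up to 0.0796).

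H2bc8 (chr13:23571400-23571863) had 52 and 38 counts with anti-m6A, 0 and 0 in IgG and 0 and 1 in Input, a ratio of at least 6.56 to IgG and of 192 to Input (counting interval 33.6 to 7671). H2bc22 had 31 and 26 counts with anti-m6A, 0 in both IgG libraries and 9 and 4 in Input, and was higher than Input by 3.14 on the log2 scale (SE 0.62, adjusted p = 0.0183). H2bc7 had 15 and 17 counts with anti-m6A, 0 in both IgG libraries and 1 and 2 in Input, with a ratio of 22.8 to Input (counting interval 7.12 to 116). All 3 were at 0 in IgG and highest with the antibody, and all 3 calls against Input were lost without either anti-m6A library.

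H2bc23 had 10 and 13 counts with anti-m6A, 0 in both IgG libraries and 13 and 19 in Input, and H4bc24 had 11 and 19 in anti-m6A, 0 in both IgG libraries and 12 and 27 in Input. Both were present with the antibody and before the pull-down and missing with IgG, and with 1.76% and 10.6% of windows their own their counts are uncertain. H2bc23 was at least 1.72-fold (adjusted p = 0.00379) and H4bc24 at least 2.28-fold (adjusted p = 0.00784) above IgG, and both calls were lost without either one of the anti-m6A libraries. Neither was called against Input.

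H2bc21 (chr3:96221072-96223738) was the main H2B gene of the IgG libraries, and its annotated transcript of 2620 bases holds no stem-loop. It had 2 and 0 counts with anti-m6A, 27 and 21 in IgG and 0 and 0 in Input. The ratio of IgG to anti-m6A was 51.1 (counting interval 13.4 to 434, adjusted p = 0.00726), and IgG was at least 37.2-fold higher than Input (adjusted p = 0.00334). Without the second anti-m6A or either IgG library the difference from anti-m6A was not called (adjusted p up to 0.114).

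H2bc14 had 393 counts in the second Input library, 1 in the first anti-m6A library and 0 in the other 4, and did not pass the filter. The untested H2B genes H2bc6, H2bc9, H2bc11, H2bc12, H2bc13 and the testis gene H2bc1 had 0 to 25 counts in a library. H2bc3, H2bc15, H2bc18, H2bu2 and H2bu1-ps were at 0 throughout.

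The H3 genes were nearly missing from Input, and their copies differed in level between the m6A antibody and IgG. H3c8 and H3c14 had most of their counts with the antibody, H3c10, H3c3, H3c1 and H3c7 had theirs with IgG, and H3c6 was seen with both. H3c8 (chr13:23535418-23535909) had 168 and 119 counts with anti-m6A, 5 and 4 in IgG and 0 and 0 in Input. It was highest with the antibody, low with IgG and not detected before the pull-down. It was at least 100.4-fold higher in anti-m6A than in Input (adjusted p = 0.00716), a call that held in all 6 fits with 1 library left out (adjusted p up to 0.0455). Against IgG the log2 difference was 3.84 (SE 0.51, adjusted p = 0.00311), lost without either anti-m6A library (adjusted p up to 0.0722).

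H3c14 (chr3:96246685-96247348) was likewise seen with the antibody alone, at 29 and 32 counts, at least 4.54-fold over IgG (adjusted p = 0.00468) and 21.8-fold over Input (adjusted p = 0.00716), both lost without either one of the anti-m6A libraries. None of its 31-base windows is its own, so its counts are uncertain. H3c15, also in Hist2, had 1 count in each anti-m6A library only.

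H3c10 (chr13:21717628-21718115) had 1 and 0 counts with anti-m6A, 32 and 23 in IgG and 1 and 0 in Input, a ratio of IgG to anti-m6A of 117 (counting interval 20.2 to 4707, adjusted p = 0.00336). H3c3 had 0 in both anti-m6A libraries, 10 and 8 in IgG and 1 and 0 in Input, and H3c1 and H3c7 each had 0 in both anti-m6A libraries, 9 and 6 in IgG and 0 in both Input libraries. These 4 copies were detected almost only with IgG. In anti-m6A, H3c3 was at least 6.57-fold lower (adjusted p = 0.00472) and H3c1 and H3c7 were each at least 5.35-fold lower (adjusted p = 0.00344) than with IgG, and all 3 calls were lost without either anti-m6A library. Without either IgG library these 3 genes did not pass the filter and were not tested. The call of H3c10 was lost without the second anti-m6A library (adjusted p = 0.0713) and held without either IgG library (adjusted p = 0.0234 and 0.0242), and with 5.77% of its windows its own its counts are uncertain.

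H3c6 had 3 and 8 counts with anti-m6A, 10 and 4 in IgG and 0 in both Input libraries. It was not called between anti-m6A and IgG (log2 difference -1.33, SE 0.69, adjusted p = 0.142) and was at least 4.09-fold over Input (adjusted p = 0.0145). The call against Input was lost without either anti-m6A library, without either IgG library and with the replicate block. The untested H3c2 had 1 and 1 counts with anti-m6A, 11 and 2 in IgG and 0 in Input, H3c4 had 5 and 1 in IgG alone, and H3c11 had 1 count in IgG 1. H3c13 was at 0 throughout.

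Of the H4 genes, which all encode one protein, a few copies held nearly all counts. H4c9 (chr13:22040960-22041362) had 268 and 266 counts with anti-m6A, 0 and 0 in IgG and 302 and 570 in Input. In CPM, at 61.3 ± 8.11 in anti-m6A and 45.5 ± 13.8 in Input (SD, n = 2 each), the higher Input library nearly reached the lower anti-m6A library, while IgG had none. It was at least 39.5-fold higher in anti-m6A than in IgG (adjusted p = 0.000865), and the log2 difference from Input was 0.43 (SE 0.38, adjusted p = 0.408).

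H4c14 (chr3:96262934-96263317) did the reverse, with 0 and 0 counts in anti-m6A, 169 and 100 in IgG and 0 and 33 in Input. At 65.1 ± 0.373 CPM (SD, n = 2) it was the leading single gene of the second IgG library among the histones, and 97.7% of its windows are its own. With anti-m6A its level was at least 94.4-fold lower than with IgG (adjusted p = 0.0196), a call lost without either IgG library (adjusted p up to 0.0742). IgG against Input, at a log2 difference of 5.30 (SE 1.82, adjusted p = 0.0573), was not called.

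H4c4 had 49 and 55 counts with anti-m6A, 2 and 0 in IgG and 0 and 1 in Input, with a ratio of 24.4 to IgG (counting interval 6.6 to 204, adjusted p = 0.00935) and of 222 to Input (counting interval 39.0 to 8852, adjusted p = 0.00718). It was the H4 copy seen almost only with the antibody, and both calls were lost without either one of the anti-m6A libraries. H4f16, the only gene of Hist4, had 2 and 0 counts with anti-m6A, 3 and 2 in IgG and 0 and 29 in Input. H4c2 had 5 counts and H4c17 1 count in the second Input library only, and H4c6 had 1 count in the second anti-m6A library. H4c1, H4c3, H4c8, H4c11, H4c12 and H4c18 were at 0 throughout.

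Many H2A and H2B genes lie back to back and share the sequence between their starts. Strands were read from RefSeq promoters, and among genes that had one there were 10 such pairs with a gap under 500 bases. H2bc4, H2bc21 and H2bu1-ps had none, so they could not be paired with H2ac6, H2ac20 and H2aw, which lie beside them. In anti-m6A, H2ac6 had 5 and 4 counts beside 2007 and 1829 for H2bc4. In IgG, H2ac20 had 0 and 1 beside 27 and 21 for H2bc21. In H2ac8 and H2bc8 both genes were high with the m6A antibody, and in H2ac11 and H2bc11 both were highest in Input. H2bc11 had 2 and 1 counts with anti-m6A, 0 in both IgG libraries and 25 and 7 in Input. H2ac7 and H2bc7 were both at 0 in IgG and had their highest mean CPM in anti-m6A, H2ac7 with 15 and 7 counts there and 11 and 4 in Input. In some other pairs the members differed in level, as for H2ac23 with 242 and 208 counts in anti-m6A beside H2bc23 with 10 and 13. The intergenic sequences of H2ac8 with H2bc8 and of H2ac11 with H2bc11 are shown as 1 example of each pattern. They are on the plus strand of GRCm38.p6, from RefSeq promoters, with the H2A gene to the left and reading leftward. Capitals mark matches on either strand to the TATA box TATAAA, the CCAAT box or the octamer ATTTGCAT.
H2ac8 and H2bc8, chr13:23571221-23571399: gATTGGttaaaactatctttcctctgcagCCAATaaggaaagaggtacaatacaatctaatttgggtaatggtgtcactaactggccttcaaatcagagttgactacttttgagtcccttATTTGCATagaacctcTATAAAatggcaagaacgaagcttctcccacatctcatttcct
H2ac11 and H2bc11, chr13:22042950-22043197: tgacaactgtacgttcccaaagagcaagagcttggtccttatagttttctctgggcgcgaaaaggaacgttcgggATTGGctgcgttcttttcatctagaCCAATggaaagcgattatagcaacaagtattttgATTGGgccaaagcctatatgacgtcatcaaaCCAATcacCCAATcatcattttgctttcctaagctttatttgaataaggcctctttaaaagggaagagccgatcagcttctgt
The first holds 2 CCAAT, 1 octamer and 1 TATAAA, and the second 5 CCAAT and neither of the others. None of these matches overlaps another.

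**Figure D4:**
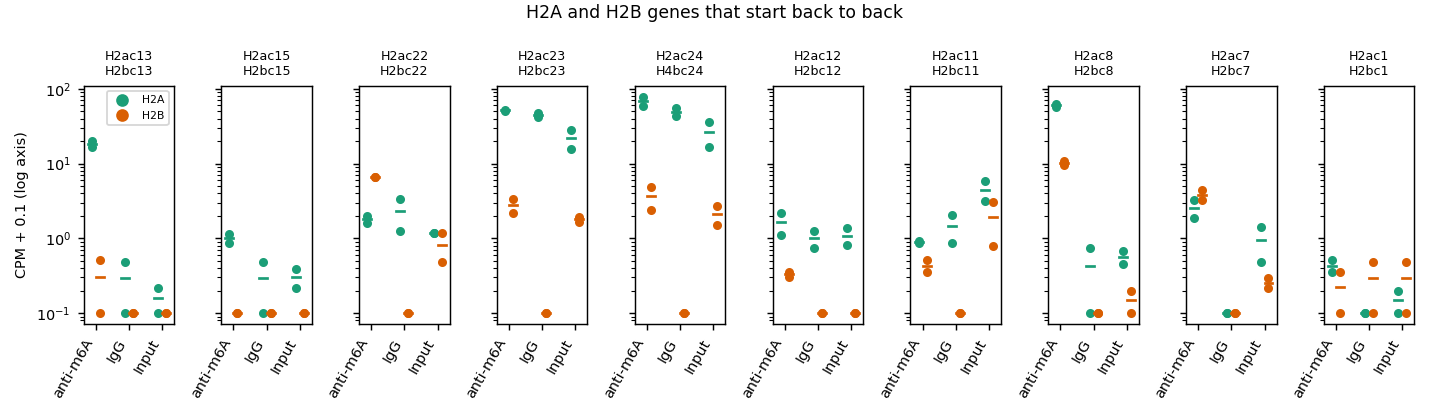
Each panel is 1 of the 10 back-to-back pairs found among genes with a RefSeq promoter. The log axis gives CPM plus 0.1 for the H2A gene (green) and the H2B gene (orange) in anti-m6A, IgG and Input. Dots are libraries and dashes means. In the H2ac8 and H2bc8 panel both genes are highest in anti-m6A, and in the H2ac11 and H2bc11 panel both are highest in Input.

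Promoters, from 250 bases before to 50 after the start in RefSeq (GRCm38.p6), were found for 62 of the 69 genes. None was found for H2bc4, H2bc21, H2bu1-ps, H3c1, H3c7, H4c14 or H2af-ps2, so the counts below leave these out. H2bc6 had another promoter, with ATTTGCAT and CGGAC, that was not counted. The TATA box TATAAA, the CCAAT box, the octamer ATTTGCAT and the motif CGGAC, the core of the site for the H4 regulator HINFP, were searched on both strands. CCAAT was in all 6 H1, 18 H2A, 16 H2B and 10 H3 promoters and in 3 of 12 H4 promoters, against 37.4% of all 32851 promoters. CGGAC was in all 12 H4 promoters (23.4% of all), in 8 of 18 for H2A, 5 of 16 for H2B, 1 of 10 for H3 and 0 of 6 for H1. The octamer was in 7 of 18 H2A and 6 of 16 H2B promoters and in none of the other classes, against 1.74% of all promoters. TATAAA was in 35 of the 62 (56.5%), against 13.6% of all.

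Many genes of the H2A, H2B, H3 and H4 classes share sequence with other copies. In the median gene 41.5% of the 31-base windows of the longest transcript occurred in no other annotated gene (range 0% to 100%), with 10 genes under 10% and 29 at 50% or more. The H1 genes had from 65.3% (H1f4) to 100% (H1f6). H1f2 (88.6%), H2aw (67.9%), H2bc4 (66.3%), H4c9 (64.7%), H2ac8 (52.1%) and H4c14 (97.7%) were among the 29, and H3c8 had 39.8%. The 29 genes held a mean of 0.0701% of the counts in anti-m6A, 0.00944% in IgG and 0.0565% in Input. The treatment of reads that match several genes is not given in the sources used here.

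**Figure D5:**
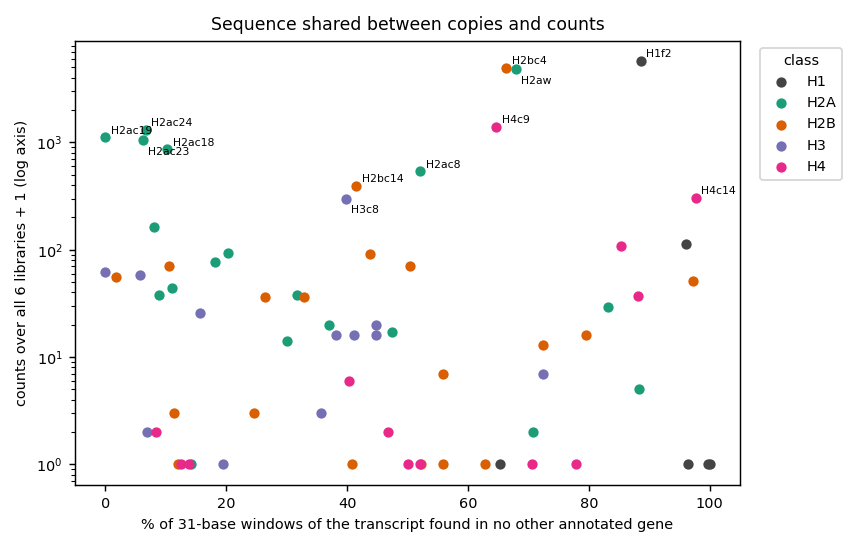
Points are the 69 histone genes, with the percent of 31-base windows of the transcript found in no other annotated gene on the horizontal axis and total counts over 6 libraries plus 1 on a log axis; genes with over 250 counts are named. H1f2, H2bc4 and H2aw have many counts and windows of their own, and the group of H2ac18, H2ac19, H2ac23 and H2ac24 lies at 10.3% or less.

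Genes by the end of their annotated transcript had these counts. The 24 whose longest annotated transcript holds no stem-loop, some of them short as given above, summed to 2251 and 2035 counts in anti-m6A. They had 76 and 53 in IgG and 258 and 1032 in Input. The 23 whose transcript runs on for 100 bases or more summed to 2184 and 1827 in anti-m6A, 205 and 120 in IgG and 2063 and 6792 in Input. The 22 that end within 100 bases summed to 1273 and 1202 in anti-m6A, 594 and 301 in IgG and 577 and 1383 in Input. In IgG the genes with the short end held the most counts and in Input those that run on, but a few genes made up most of each sum. In IgG these were H2ac18, H2ac19, H2ac23 and H2ac24 among the short ends, and in Input H1f2 and H2aw among those that run on. In anti-m6A, H2bc4 held most counts of the genes without a stem-loop. The motif GGACT, a common form of the m6A consensus, was searched on the sense strand and occurred in 23 of the 69 longest transcripts against 87.8% of 21834 other protein-coding genes, with a median of 0 against 1.01 matches per kilobase. It was present in H1f2, H2bc4, H3c8, H2ac8, H4c4 and H4c14 and missing in H2aw, H4c9, H1f5 and H2ac13, and a match does not show a methylated site.

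Genes that work with these histones were counted from lists of related genes. Of 11 replication-independent histone genes, anti-m6A was above IgG for 7 and below it for 1, and above Input for 4 and below it for 1. Over all tested genes the shares were 73.1% above and 8.31% below IgG, and 28% above and 20.5% below Input, and the counts of this list and of those that follow are to be read against them. H1f0, a linker histone of resting cells, had 16188 and 14998 counts with anti-m6A, 490 and 272 in IgG and 13338 and 19540 in Input, and was higher than Input by 1.04 on the log2 scale (SE 0.16, adjusted p = 0.00723). H2az2, an H2A variant, was higher than Input by 1.16 (SE 0.21, adjusted p = 0.0103), and H2aj by 1.36 (SE 0.27, adjusted p = 0.0127). H3f3a, which encodes the H3.3 variant, had 492 and 447 counts with anti-m6A, 615 and 378 in IgG and 479 and 1175 in Input, lower than IgG by a log2 difference of -1.17 (SE 0.38, adjusted p = 0.0328).

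Of 18 genes for the processing and decay of histone mRNA, 16 were tested, with anti-m6A above IgG for 14 and below it for 0, and above Input for 2 and below it for 5. Slbp, which encodes the stem-loop binding protein, had 223 and 179 counts with anti-m6A, 142 and 74 in IgG and 1 and 431 in Input, with no call. Lsm10, a subunit of the U7 particle that helps cut the 3′ end, had 3238 and 3100 counts with anti-m6A, 0 and 0 in IgG and 1547 and 2703 in Input, and was higher than Input by 1.71 (SE 0.28, adjusted p = 0.0117). Of 17 histone chaperones, 16 were tested, with 12 higher and 1 lower than IgG and 3 higher and 2 lower than Input. Ssrp1, a FACT subunit, had 135 and 123 counts with anti-m6A, 2665 and 1372 in IgG and 333 and 1753 in Input. Of 20 S phase genes, 19 were tested, with 13 higher and 1 lower than IgG and 4 higher and 5 lower than Input. All 13 were at 0 in both IgG libraries, as were 12 of the 14 processing genes and 10 of the 12 chaperones above IgG. Rrm2, Gins2, Rfc4 and Mki67, the 4 above Input, and the chaperones Asf1b and Chaf1a were at 0 in IgG and Input. They passed the filter on low counts only through the anti-m6A libraries, which set the direction of their calls. Gins2, of the replicative helicase, was at 759 and 663 counts with the antibody and at 0 in the 4 other libraries. Mki67, a marker of cycling cells, was at 20 and 12 counts with the antibody and likewise at 0 elsewhere. Top2a, the topoisomerase of dividing cells, had 131 and 91 counts with anti-m6A, 925 and 353 in IgG and 589 and 949 in Input. Mcm5, also of that helicase, had 9 and 6 counts with anti-m6A, 0 in both IgG libraries and 294 and 370 in Input.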

How the data were processed

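Counts were those the authors deposited, raw counts per Entrez gene number in 6 libraries (2 each of anti-m6A, IgG and Input), not normalized. Per the submitters' processing notes, featureCounts, Picard, edgeR 3.38.1 and the build mm10 were used, in roles not stated. The aligner, annotation and handling of reads with several matches: not given in the sources used here. Of 27179 gene numbers 25275 matched a RefSeq symbol (GRCm38.p6) and 1904 did not. Groups and replicate numbers came from the sample titles.

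Here edgeR 4.0.16 was run under R 4.3.3, with limma 3.58.1 loaded. The filter on low counts was filterByExpr (minimum count 10, minimum total 15). Libraries were scaled by TMM and all 6 fitted together with 3 group means by the quasi-likelihood test (glmQLFit, glmQLFTest). Every adjusted p is by the Benjamini-Hochberg method across the 11281 genes tested, with a threshold of 0.05. The SE is that of a log2 difference. CPM are counts scaled to a common TMM-adjusted library size. Where a group was at 0, the other group's mean was divided by what 3 counts per library stand for, and where it had 1 to 3 counts a ratio with an exact 95% counting interval is given. Stem-loops, 31-base windows and GGACT were read from GENCODE vM21 transcripts (GRCm38) and promoters from RefSeq. The script was tested on simulated counts.

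Alternatives were DESeq2 1.42.0, its size factors, library totals, other count filters, a replicate block, leaving out each library, and the symbol pattern letter for letter. The genes and lists were chosen with earlier results of these data known. Every gene with a count is named. Values in all libraries are given for called genes up to the 10 with the largest change in a comparison, the 3 with most counts in a class, and genes at 0 in 1 group and at 20 or more counts in another; other genes described were chosen after their values were seen. Of the related lists up to 4 genes of the highest mean CPM were eligible, and H3f3a, Mki67 and Mcm5 were chosen after their values were seen.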

Additional observations from a re-analysis of the deposited data

How the results depend on the processing

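Against IgG, the 15 genes higher and 6 lower in anti-m6A became 0 and 0 with at least 10 counts required in each library and 8 and 2 of the 10 tested genes with at least 50% unique windows, the last a setting chosen after seeing the data; leaving out 1 library gave 7 to 16 higher and 1 to 7 lower. The median log2 difference was 3.75 with library totals and 0.679 to 4.06 with 1 library left out. The summed share of all histone genes, a log2 ratio of 1.41, was 1.93 with TMM, 1.97 with size factors, 1.93 summed by class before the fit, 0.995 for the symbol pattern letter for letter (clustered genes only), 1.26 without the gene with most counts and 2.89 with unique windows. For H3 it turned to 0.229, 0.258 and 0.23 and for H4 to 0.143, 0.175 and 0.145 with TMM, size factors and sums by class.

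Against Input, the 14 higher became 2 with at least 10 counts, 9 with the replicate block and 5 with unique windows, and 1 to 17 with 1 library left out. The 1 lower became 2 with size factors, 2 with library totals, 2 with DESeq2, 0 with at least 10 counts, 0 with the block, 0 with unique windows, and 0 to 5 with 1 library left out. The median was 1.33 with size factors, 1.23 with library totals, 1.34 with DESeq2 and 0.963 to 1.83 with 1 library left out. The summed share was 1.59 with the letter-for-letter pattern, and that of H2B -0.322 without its top gene.

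For IgG against Input, the 9 higher became 2 with at least 10 counts and 1 with unique windows, and 6 to 14 with 1 library left out; the 8 lower became 0, 5 with the replicate block, 5 with unique windows, and 4 to 8. The median was 0.218 with size factors and -0.494 and -0.172 without the first or second IgG library and up to 0.869 without the second Input library. The summed share turned to 0.597 with the letter-for-letter pattern and was -2.58 with unique windows. The requirement of 10 counts in each library leaves out genes at 0 in a group. The cause of the other shifts was not tested. The labels give the replicate numbers no meaning, and with 2 numbers per group a pairing cannot be settled: deviations of same-numbered libraries correlated at 0.418, 0.231 and 0.21 over 1757 genes. With the replicate block, H2ac11, H2ac23, H2bc22, H2bc7, H3c14 and H3c6 lost their calls against Input, H3c1 and H3c7 theirs against IgG, and H2ac11, H2bc22 and H2bc23 theirs between IgG and Input. With 2 libraries a group and a lone library assumed to vary like the others, single calls rest on few residual degrees of freedom.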
